A study of Homo sapiens with 6 samples.

Results

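The messenger RNAs of 45 genes of autophagy and mitophagy were compared between U251 cells, a human glioblastoma cell line, with and without knockdown of TRAF2. The 45 genes were chosen by symbol for their known roles, with earlier results of these data known, and all 45 were found among the 23002 genes of the expression table. Autophagy starts when the ULK1 kinase complex activates the class III PI3-kinase complex around BECN1. The lipid made there draws WIPI proteins to a growing membrane, where ATG9A vesicles and ATG2 lipid transfer proteins also act. A pair of ubiquitin-like systems then attaches ATG8 proteins (the LC3 and GABARAP families) to that membrane, receptors such as SQSTM1 bind cargo to ATG8 proteins, and the closed autophagosome fuses with the lysosome. In mitophagy the cargo is mitochondria, marked through PINK1 or carried by receptors of the outer mitochondrial membrane such as BNIP3, BNIP3L and FUNDC1. The genes were read in the classes initiation (17 genes), conjugation (15), receptors (9) and lysosome and fusion (4).

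The control group (NC) carried a lentivirus with a non-targeting sequence, and the knockdown group (KD) a lentivirus with a hairpin against TRAF2, a ubiquitin ligase adaptor of TNF receptor signalling. Both were stable cultures selected with puromycin, with 3 samples described as biological replicates in each group, and the sources used here do not state which of 2 hairpins was sequenced or whether the lines were clonal. TNF-α treatment is not stated for either group. The files show 33999558 to 36823562 reads on genes per sample, recovered from the steps in the FPKM values (fragments per kilobase of transcript scaled to the number of mapped fragments, a level per length of transcript). TRAF2 itself stood at 15.1, 18.4 and 15.3 FPKM in the NC samples and 3.26, 3.22 and 3.33 FPKM in the KD samples, and fell by 79.9% (log2 fold change −2.27, SE 0.0791, adjusted p = 1.16e-06). Of 9 glial and glioma markers, VIM, CD44, SOX2, SOX9 and NES were present, S100B and OLIG2 were at or near 0 and CHI3L1 was not analysed here. Of the 6 tested, 3 rose in KD: NES from 5.35 ± 0.528 to 11.7 ± 0.227 FPKM (log2 fold change 1.12, adjusted p = 1.91e-05), VIM from 1242 ± 38.9 to 1582 ± 24.8 FPKM (0.35, adjusted p = 6.87e-05) and GFAP, low and overlapping between the groups, from 0.467 ± 0.176 to 1.18 ± 0.552 FPKM (1.11, adjusted p = 0.0382). Of 12 markers of other cell types in the table, 9 were too low to test. SYT1 fell (25.1 and 13.8 FPKM), KRT8 rose (0.792 and 1.203 FPKM), and CD68, which is also a general lysosomal protein, was at 16.1 and 15.9 FPKM. Among markers too low to test, the neuronal SNAP25 was at 0.297 FPKM in NC and 0.598 in KD without overlap. RBFOX3, also neuronal, was near 0. The part of these glial and other markers in the results below was not tested. In these bulk cultures a change in every cell and a change in the share of cells that express a gene cannot be told apart, and an FPKM value is a share of the messenger RNA, not an amount per cell.

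The targets of the hairpins are shown because they give the sites that each was designed to match. They were designed by the study and placed here on the GENCODE 29 transcript TRAF2-201 (GRCh38), whose 11 exons include both targets in coding sequence. In GENCODE 29 each target matched transcripts of TRAF2 only over all 21 bases, and of 0 of the 45 genes. Partial matches were not searched for, so silencing of other genes through them was not tested.
sh-TRAF2#1, chr9:136916579-136916599, plus strand, exon 7: cccttgcagattccacgccat
sh-TRAF2#2, chr9:136920480-136920500, plus strand, exon 8: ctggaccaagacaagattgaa

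Between KD and NC these genes differed in both directions and by small amounts. Whether the differences come from the loss of TRAF2 or from another difference between the stable cultures was not tested. Of the 45 genes, 24 passed an adjusted p of 0.05 by limma, 10 of them higher and 14 lower in KD, and 21 did not pass. That is 53.3% of the 45, beside 44.6% of all 11870 genes tested, 23.7% higher and 20.9% lower. None of the 45 passed with a log2 fold change of at least 1 in size, beside 1.72% of all genes tested. The 3 NC and 3 KD values did not overlap in 28 of the 45 genes, beside 55.5% of all genes tested. The log2 fold changes (KD minus NC, on log2 of FPKM + 0.1) ran from −0.62 for WIPI1 to 0.46 for AMBRA1, with a median of −0.066 beside 0.019 over all genes tested, and the median size without sign was 0.22 beside 0.19. Together the 45 genes took 1.09 to 1.13% of the reads in NC and 0.952 to 0.971% in KD. Without SQSTM1, the most abundant of them, the shares were 0.442 to 0.477% and 0.435 to 0.447% and overlapped.

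**Figure D1:**
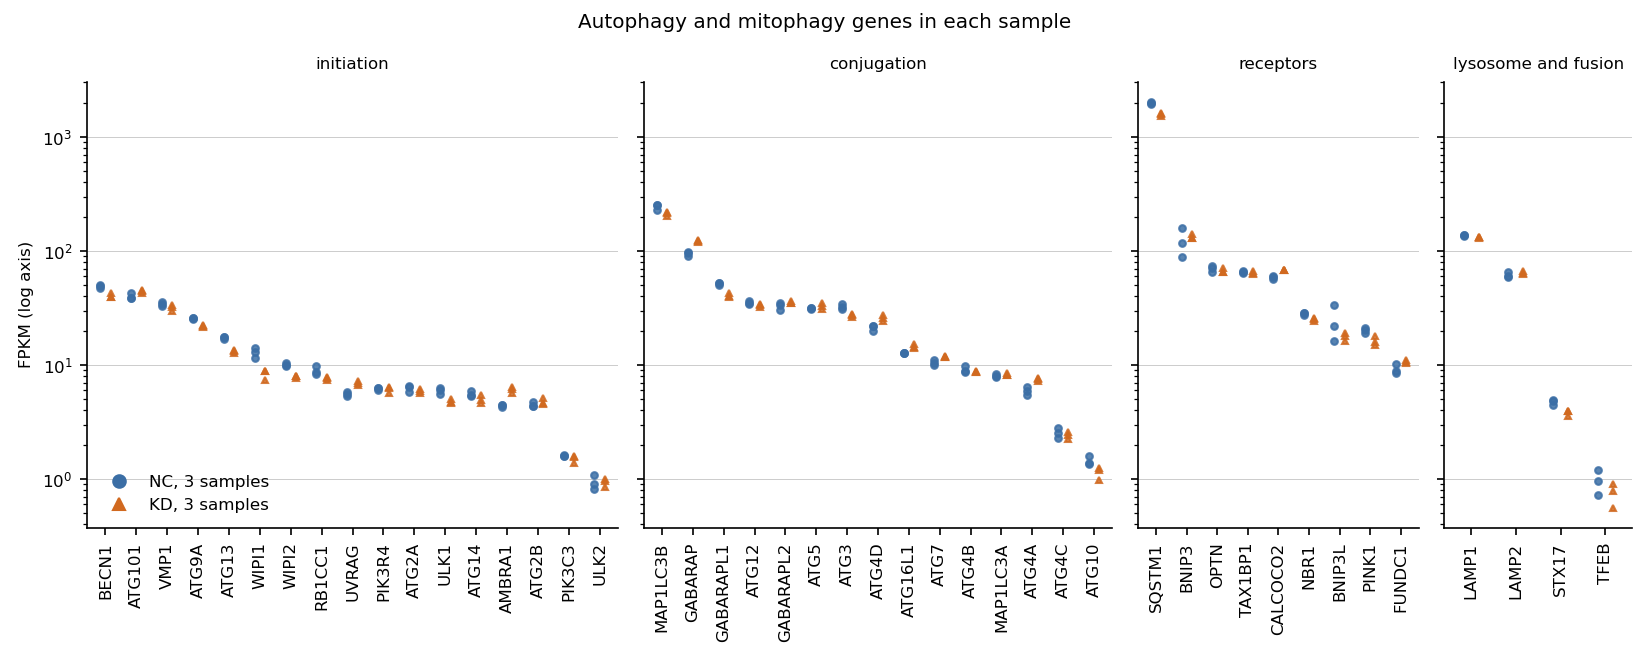
FPKM of each of the 45 genes in each sample on a log axis, by class, with circles for the 3 NC samples and triangles for the 3 KD samples. SQSTM1 stands at 1538 FPKM or more in every sample while TFEB lies between 0.563 and 1.21, and most pairs of groups lie close together on this scale.

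**Figure D2:**
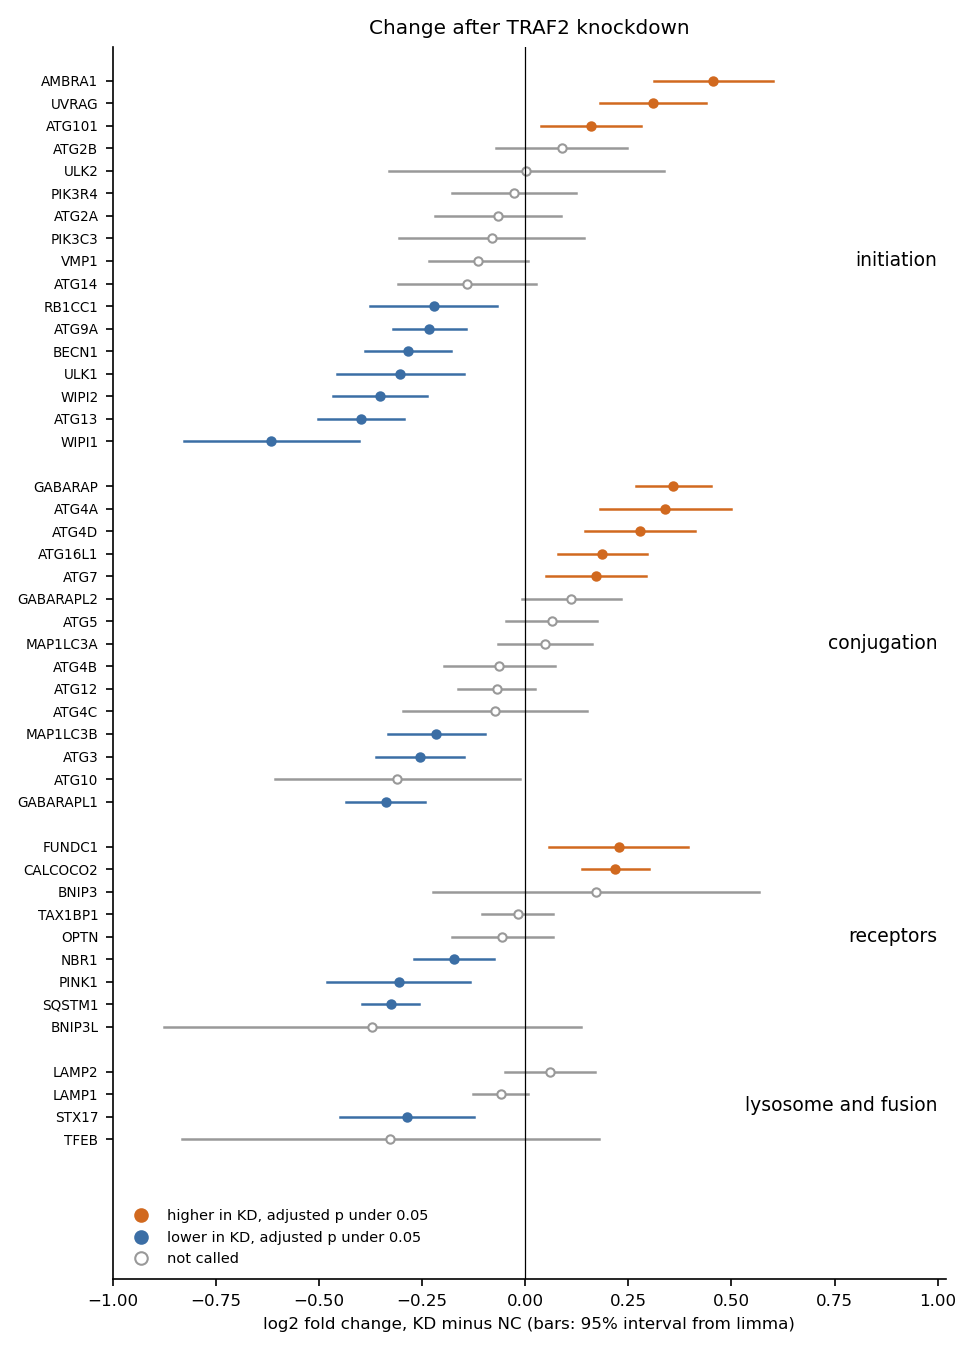
Log2 fold change of each of the 45 genes (points) with its 95% interval from limma (bars), by class, coloured by whether it passed an adjusted p of 0.05. Genes lower and genes higher in KD stand in every class but lysosome and fusion, where STX17 passed as lower and the other 3 genes did not pass.

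In initiation, 7 of 17 genes fell, 3 rose and 7 did not pass, with a median log2 fold change of −0.11. The share that passed was 58.8%, beside 44.6% of all genes tested. The falls included ULK1, ATG13 and RB1CC1 of the ULK complex and BECN1, WIPI1, WIPI2 and ATG9A, while AMBRA1 and UVRAG, which bind or regulate the BECN1 complex, rose. ULK1, the kinase that starts the process, stood at 6.34, 5.58 and 5.99 FPKM in the NC samples and 4.66, 4.75 and 5.04 FPKM in the KD samples (log2 fold change −0.30, SE 0.0672, adjusted p = 0.00711). ATG13, which holds the ULK complex together, stood at 17.7, 16.8 and 17.5 FPKM in the NC samples and 12.7, 13.4 and 13.3 FPKM in the KD samples and fell by 24.3% (log2 fold change −0.40, SE 0.0457, adjusted p = 2.63e-04). In both genes every KD sample lay below every NC sample. RB1CC1, also called FIP200 and the scaffold of that complex, stood at 8.76, 8.38 and 9.78 FPKM in the NC samples and 7.72, 7.38 and 7.90 FPKM in the KD samples (log2 fold change −0.22, SE 0.0671, adjusted p = 0.0268). ATG101, which binds ATG13, went the other way (from 39.9 ± 2.66 to 44.5 ± 1.43 FPKM; log2 fold change 0.16, adjusted p = 0.0396), and ULK2, a kinase related to ULK1 but listed here at 0.943 and 0.940 FPKM in NC and KD, did not pass (95% interval −0.33 to 0.34). The ULK complex genes therefore counted 3 lower, 1 higher and 1 that did not pass.

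BECN1, the scaffold of the class III PI3-kinase complex, stood at 49.98, 47.8 and 49.7 FPKM in the NC samples and 39.3, 42.7 and 39.1 FPKM in the KD samples (log2 fold change −0.28, SE 0.0453, adjusted p = 0.00140). On the opposite strand, CNTD1 (0.441 and 0.514 FPKM in NC and KD) covers 12.4% of the exon bases of BECN1 in GENCODE 29. PSME3 (67.5 and 70.2 FPKM) covers 4.68% there. AMBRA1, which links BECN1 to the ULK complex, stood at 4.49, 4.28 and 4.45 FPKM in the NC samples and 5.72, 6.13 and 6.41 FPKM in the KD samples and rose by 38.2% (log2 fold change 0.46, SE 0.0630, adjusted p = 6.84e-04). The ratio of AMBRA1 to BECN1 FPKM was 0.0897 ± 8.68e-05 in NC and 0.151 ± 0.0113 in KD, with no overlap between the groups (exact permutation test, two-sided, p = 0.1, the smallest value that 3 against 3 allows). Since AMBRA1 was higher and BECN1 lower in every KD sample than in every NC sample, that separation was fixed in advance. The ratio restates the 2 single-gene results and adds no support. UVRAG, which takes the place of ATG14 in a second form of the complex, stood at 5.75, 5.62 and 5.37 FPKM in the NC samples and 6.92, 6.72 and 7.19 FPKM in the KD samples (log2 fold change 0.31, SE 0.0564, adjusted p = 0.00271). Its alternative partner ATG14 had a log2 fold change of −0.14 and did not pass (95% interval −0.31 to 0.026). The catalytic subunit PIK3C3 (−0.081, 95% interval −0.31 to 0.14) and the regulatory kinase PIK3R4 (−0.027, 95% interval −0.18 to 0.12) did not pass either. Subunits and regulators of this complex thus counted 2 higher, 1 lower and 3 that did not pass.

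WIPI1, which binds the lipid made by that complex, had the lowest log2 fold change of the 45 genes. It stood at 12.9, 11.6 and 14.2 FPKM in the NC samples and 8.94, 7.42 and 8.82 FPKM in the KD samples, a fall of 35.0% (log2 fold change −0.62, SE 0.0930, adjusted p = 0.00107). Its relative WIPI2, which brings ATG16L1 to the membrane, stood at 9.80, 10.03 and 10.4 FPKM in the NC samples and 7.96, 8.02 and 7.63 FPKM in the KD samples (log2 fold change −0.35, SE 0.0501, adjusted p = 8.00e-04). ATG9A, the scramblase carried on seed vesicles, stood at 25.6, 25.6 and 26.0 FPKM in the NC samples and 21.4, 22.2 and 22.0 FPKM in the KD samples (log2 fold change −0.23, SE 0.0385, adjusted p = 0.00169). All 3 genes had every KD sample below every NC sample. The lipid transfer proteins ATG2A (−0.066, 95% interval −0.22 to 0.087) and ATG2B (0.089, −0.070 to 0.25) and the endoplasmic reticulum scramblase VMP1 (−0.11, −0.23 to 0.0058) did not pass, VMP1 passing only after quantile normalization (−0.16, adjusted p = 0.0419) among the 15 alternatives. In GENCODE 29, 24.3% of the exon bases of WIPI1 are shared with ARSG on the opposite strand, which was at 0.338 and 0.317 FPKM, and 38.8% of those of ATG9A are shared with an overlapping protein-coding model on its own strand. The strand setting of the counting is not given in the sources used here, so reads of such partners cannot be told apart.

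In conjugation, 5 of 15 genes rose, 3 fell and 7 did not pass, with a median log2 fold change of 0.047. The share that passed was 53.3%, beside 44.6% of all genes tested. Among the enzymes and ATG4 proteases, ATG4A, ATG4D, ATG16L1 and ATG7 rose and ATG3 fell. ATG3, which passes ATG8 proteins to the lipid, stood at 32.4, 31.1 and 34.1 FPKM in the NC samples and 27.6, 26.3 and 27.8 FPKM in the KD samples (log2 fold change −0.26, SE 0.0466, adjusted p = 0.00275). ATG4A, a protease that trims ATG8 proteins before they are attached, stood at 5.87, 6.45 and 5.49 FPKM in the NC samples and 7.24, 7.76 and 7.58 FPKM in the KD samples (log2 fold change 0.34, SE 0.0693, adjusted p = 0.00484). ATG4D, of the same protease family, stood at 22.0, 22.0 and 19.97 FPKM in the NC samples and 24.5, 27.5 and 25.6 FPKM in the KD samples (log2 fold change 0.28, SE 0.0584, adjusted p = 0.00548). For the proteases every KD sample lay above every NC sample, and for ATG3 below. ATG4B (−0.063, 95% interval −0.20 to 0.071) and ATG4C (−0.074, −0.30 to 0.15) did not pass, and the ratio of ATG4A to ATG4B FPKM was 0.647 ± 0.0262 in NC and 0.859 ± 0.0178 in KD (exact permutation p = 0.1). KRI1 covers 14.97% of the exon bases of ATG4D on the opposite strand and was at 18.9 and 17.7 FPKM (log2 fold change −0.088, which did not pass).

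ATG7, the activating enzyme of both conjugation systems, changed from 10.5 ± 0.586 to 11.9 ± 0.0318 FPKM (log2 fold change 0.17, adjusted p = 0.0285). VGLL4 covers 18.07% of the exon bases of ATG7 on the opposite strand. It was at 17.03 and 17.5 FPKM in NC and KD (log2 fold change 0.041, which did not pass). ATG16L1, which places the second conjugation step on the membrane, changed from 12.8 ± 0.0728 to 14.6 ± 0.636 FPKM (log2 fold change 0.19, adjusted p = 0.0131). ATG5 (0.064, 95% interval −0.047 to 0.17) and ATG12 (−0.069, −0.16 to 0.024), which are joined to each other, did not pass. ATG10, the enzyme that joins them, was at 1.44 and 1.15 FPKM in NC and KD with no overlap between the groups, but its log2 fold change of −0.31 did not pass (adjusted p = 0.0830), although it did after quantile normalization (−0.35, adjusted p = 0.0461) and with voom on recovered reads (−0.34, adjusted p = 0.0367). It overlaps the abundant ribosomal gene RPS23 on the opposite strand over 6.86% of the exon bases of ATG10, and RPS23 was at 209 and 218 FPKM.

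The 5 ATG8 family genes did not move as one. GABARAP rose, MAP1LC3B and GABARAPL1 fell, and MAP1LC3A and GABARAPL2 did not pass. MAP1LC3B, the precursor of the LC3 protein usually followed as an autophagosome marker, stood at 255, 231 and 255 FPKM in the NC samples and 221, 201 and 216 FPKM in the KD samples (log2 fold change −0.22, SE 0.0514, adjusted p = 0.00969). GABARAP stood at 90.6, 97.3 and 96.8 FPKM in the NC samples and 125, 119 and 121 FPKM in the KD samples, a rise of 28.3% (log2 fold change 0.36, SE 0.0397, adjusted p = 2.22e-04). GABARAPL1, its close relative, stood at 52.3, 49.996 and 52.6 FPKM in the NC samples and 39.8, 40.1 and 42.5 FPKM in the KD samples, a fall of 20.9% (log2 fold change −0.34, SE 0.0417, adjusted p = 3.75e-04). In each of the 3 genes the groups did not overlap. GABARAPL2 had a log2 fold change of 0.11 (95% interval −0.0086 to 0.23) and MAP1LC3A of 0.047 (−0.067 to 0.16).

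As a share of the summed FPKM of these 5 genes, MAP1LC3B went from 56.8 ± 1.72% to 50.7 ± 0.956% (mean ± SD, n = 3; exact permutation p = 0.1). GABARAP went from 21.9 ± 1.25% to 29.1 ± 0.412% and GABARAPL1 from 11.9 ± 0.111% to 9.75 ± 0.412%, again with no overlap between the groups (exact permutation p = 0.1 for each, n = 3). Their summed level was 434 ± 14.1 in NC and 419 ± 12.97 in KD (exact permutation p = 0.3), so the groups overlapped in total. The shares of MAP1LC3A (1.86% in NC and 1.996% in KD) and GABARAPL2 (7.57% and 8.48%) separated too, though these genes did not pass. Shares of a common sum depend on each other, so they restate the single-gene results and add no support. The ratio of GABARAP to GABARAPL1 FPKM was 1.84 ± 0.108 in NC and 2.99 ± 0.150 in KD (exact permutation p = 0.1), and that of MAP1LC3B to GABARAP was 2.61 ± 0.225 in NC and 1.74 ± 0.0502 in KD (exact permutation p = 0.1). GABARAP was higher and the other 2 genes lower in every KD sample than in every NC sample, so both ratios had to separate. These ratios restate the single-gene results and add no support. A near-identical copy of MAP1LC3B, MAP1LC3B2, was listed at 10.4 and 10.2 FPKM (log2 fold change −0.014, which did not pass), and reads of the pair could be split by the counting. GABARAP shares 30.5% of its exon bases with another protein-coding model on its own strand in GENCODE 29.

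**Figure D3:**
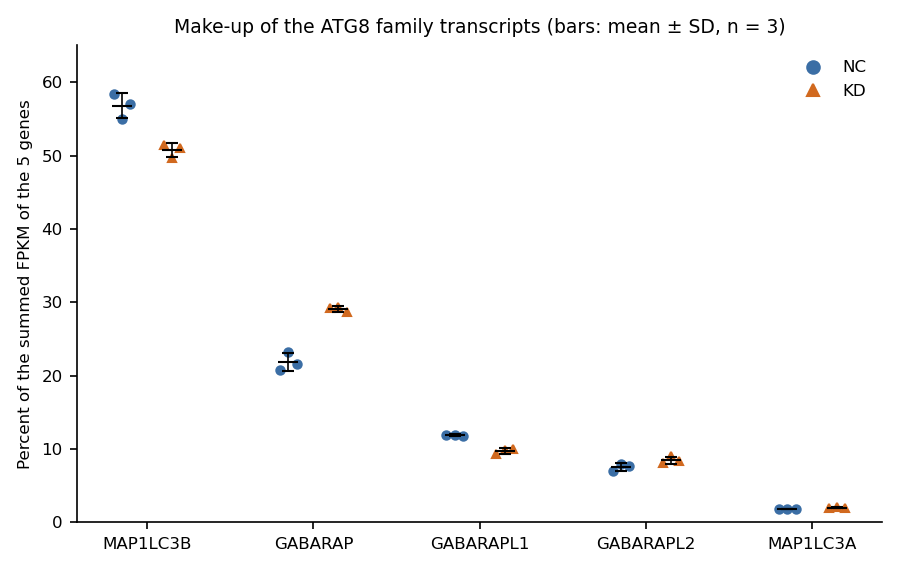
Share of each ATG8 family gene in the summed FPKM of the 5 genes, in percent, with circles for NC samples, triangles for KD samples and bars for mean ± SD (n = 3 per group). The MAP1LC3B share is lower and the GABARAP share higher in all 3 KD samples than in all 3 NC samples.

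Among the receptors, 3 of 9 genes fell, 2 rose and 4 did not pass, with a median log2 fold change of −0.056. The share that passed was 55.6%, beside 44.6% of all genes tested. Without NC replicate 1, NC replicate 2 or any 1 KD sample 1 receptor rose, and without NC replicate 3 there were 3. SQSTM1 (p62), the main receptor for ubiquitinated cargo and the 13th most abundant messenger RNA of the tested genes by mean FPKM, fell. It stood at 1932, 2031 and 1982 FPKM in the NC samples and 1538, 1614 and 1591 FPKM in the KD samples, a fall of 20.2% (log2 fold change −0.33, SE 0.0300, adjusted p = 9.40e-05). CALCOCO2 (NDP52), a receptor for invading bacteria and damaged mitochondria, rose. It stood at 59.0, 56.9 and 60.5 FPKM in the NC samples and 68.4, 68.3 and 68.5 FPKM in the KD samples (log2 fold change 0.22, SE 0.0353, adjusted p = 0.00151). The groups did not overlap for either gene, and the ratio of CALCOCO2 to SQSTM1 FPKM was 0.0297 ± 0.00144 in NC and 0.0433 ± 0.00109 in KD (exact permutation p = 0.1). As the 2 genes moved in opposite directions without overlap, this ratio had to separate and adds no support. NBR1, a receptor that works with SQSTM1, fell from 28.4 ± 0.630 to 25.2 ± 0.824 FPKM (log2 fold change −0.17, adjusted p = 0.0110), and OPTN (−0.056, 95% interval −0.18 to 0.067) and TAX1BP1 (−0.018, −0.10 to 0.068) did not pass. Of the summed FPKM of these 5 soluble receptors, SQSTM1 made up 89.9 ± 0.411% in NC and 87.5 ± 0.324% in KD (exact permutation p = 0.1). This share restates the single-gene results and adds no support. MRNIP covers 20.7% of the exon bases of SQSTM1 on the opposite strand and was at 6.07 and 7.34 FPKM.

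Of the 4 mitophagy genes, PINK1 fell, FUNDC1 rose, and BNIP3 and BNIP3L did not pass. PINK1, the kinase that builds up on damaged mitochondria, stood at 20.2, 21.3 and 18.99 FPKM in the NC samples and 14.9, 18.1 and 16.0 FPKM in the KD samples (log2 fold change −0.31, SE 0.0760, adjusted p = 0.0116). All KD values of PINK1 lay below all NC values. Antisense transcripts of PINK1-AS cover 39.4% of the exon bases of PINK1 in GENCODE 29, and their level was not analysed here. FUNDC1, a receptor of the outer mitochondrial membrane, stood at 8.45, 8.86 and 10.2 FPKM in the NC samples and 10.4, 11.2 and 10.6 FPKM in the KD samples (log2 fold change 0.23, SE 0.0734, adjusted p = 0.0349). The highest NC value of FUNDC1 lay just below its lowest KD value.

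BNIP3 and BNIP3L, the hypoxia-linked mitophagy receptors, varied more among the NC samples than between the groups. BNIP3 stood at 118, 88.3 and 159 FPKM in the NC samples and 140.1, 129 and 131 FPKM in the KD samples (log2 fold change 0.17, 95% interval −0.22 to 0.57). BNIP3L stood at 22.1, 16.1 and 33.7 FPKM in the NC samples and 19.02, 16.1 and 18.1 FPKM in the KD samples (log2 fold change −0.37, 95% interval −0.88 to 0.13). In both genes NC replicate 2 was the lowest and NC replicate 3 the highest NC sample, 1.80-fold apart for BNIP3 and 2.09-fold for BNIP3L, against 1.09-fold and 1.18-fold among the KD samples. Without NC replicate 2 the log2 fold change of BNIP3 was −0.039, and without NC replicate 3 it was 0.38 (adjusted p = 0.0258). BNIP3L was lower in KD without NC replicate 2 (−0.62, adjusted p = 0.0181), while without NC replicate 3 it was −0.093 (adjusted p = 0.600). Of 16 tested target genes of the hypoxia-inducible factors (HIF), 15 had the same order of the NC samples (NC replicate 2, then 1, then 3), all but LDHA, and 8 had this order with an NC range over 1.5-fold. The order held in 15 of the 45 autophagy genes and in 20.3% of all genes tested, and order and range together in 2 of the 45 (BNIP3 and BNIP3L) and in 1.72% of all genes tested. The order looked for was that of BNIP3 and BNIP3L, whose ranges exceed 1.5-fold. These 2 genes meet the pattern by definition and add no support to it. The part of NC replicates 2 and 3 in the group difference of other genes was not tested beyond leaving each out. Between the groups, 1 of the 16 HIF targets passed (6.25%, beside 44.6% of all genes tested). It was DDIT4 (from 367 ± 53.9 to 256 ± 23.9 FPKM, log2 fold change −0.51). PFKFB3 (0.40, adjusted p = 0.0501) and LDHA (0.17, adjusted p = 0.0509) came next and did not pass. Without NC replicate 2, 1 HIF target was higher and 3 lower, and without NC replicate 3, 7 were higher.

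**Figure D4:**
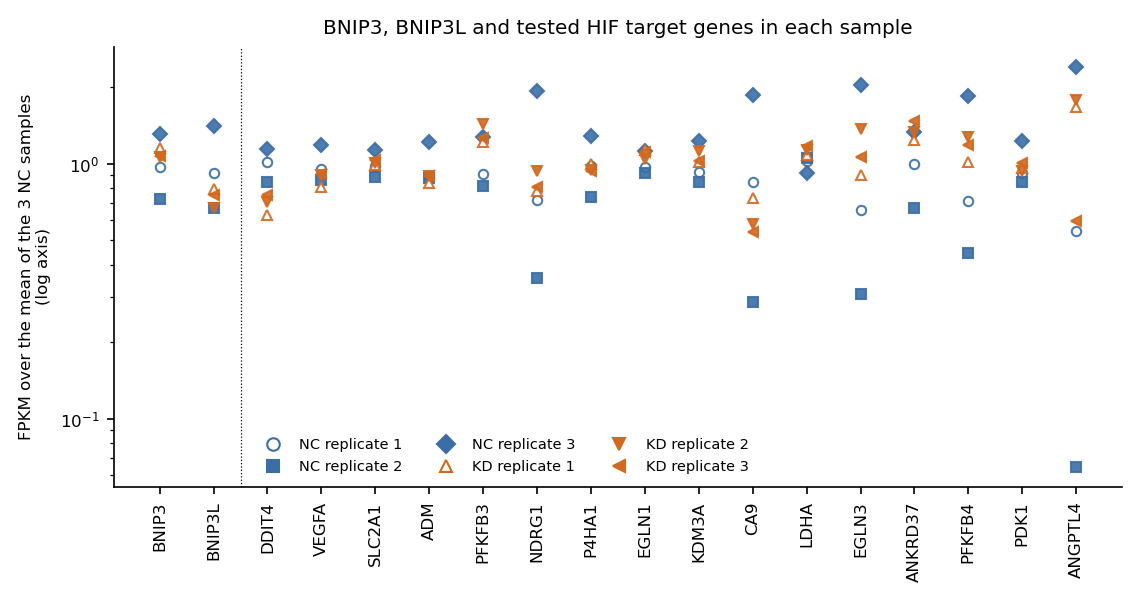
FPKM of BNIP3 and BNIP3L (left of the dotted line) and of 16 tested HIF target genes in each sample, divided by the mean of the 3 NC samples, on a log axis. NC replicate 2 (squares) lies lowest and NC replicate 3 (diamonds) highest of the NC samples in every gene shown but LDHA.

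In lysosome and fusion, STX17 fell and TFEB, LAMP1 and LAMP2 did not pass. The share that passed was 25%, beside 44.6% of all genes tested. STX17, the SNARE of closed autophagosomes that drives their fusion with lysosomes, stood at 4.83, 4.45 and 4.90 FPKM in the NC samples and 3.59, 3.99 and 3.97 FPKM in the KD samples (log2 fold change −0.29, SE 0.0713, adjusted p = 0.0118). TFEB, a transcription factor for lysosomal and autophagy genes, stood at 0.970, 1.21 and 0.723 FPKM in the NC samples and 0.780, 0.903 and 0.563 FPKM in the KD samples, from 72 to 158 reads per sample, and its log2 fold change of −0.33 had a 95% interval of −0.83 to 0.18. The groups overlapped, and TFEB did not pass (adjusted p = 0.258). LAMP1, a glycoprotein of the lysosomal membrane, was 136, 138 and 138 FPKM in the NC samples and 129.9, 133 and 132 FPKM in the KD samples, with every KD sample lower, but did not pass (−0.060, 95% interval −0.13 to 0.0065), and neither did LAMP2 (0.060, −0.048 to 0.17), whose splice form LAMP2A serves chaperone-mediated autophagy.

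TFEB and its relatives bind DNA sites built on CACGTG, and this motif was searched for in the promoters of the 45 genes, on both strands at once since it reads the same on each. The RefSeq promoter table (GRCh38.p14, 250 bases before to 50 after each start) held 47 promoters of 37 of the 45 genes. Of these, 4 (8.51%) held the motif, beside 7.26% of 35116 promoters of all genes. The LAMP1 promoter held 6 copies and was the only 1 of the 35116 with 6; it is shown whole, and the others as the stretch around their copies, with CACGTG in capitals and written 5′ to 3′ on the strand of the gene.
LAMP1, chr13:113296989-113297288, plus strand: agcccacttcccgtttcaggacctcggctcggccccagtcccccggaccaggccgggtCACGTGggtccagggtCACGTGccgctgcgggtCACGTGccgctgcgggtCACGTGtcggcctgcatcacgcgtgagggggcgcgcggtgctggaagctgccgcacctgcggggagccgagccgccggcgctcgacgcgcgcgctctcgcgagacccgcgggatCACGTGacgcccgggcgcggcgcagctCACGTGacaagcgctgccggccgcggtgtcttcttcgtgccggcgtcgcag
ATG3, chr3:112561925-112562007, minus strand: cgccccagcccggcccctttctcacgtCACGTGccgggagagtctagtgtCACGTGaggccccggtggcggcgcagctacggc
ATG14, chr14:55411819-55411878, minus strand: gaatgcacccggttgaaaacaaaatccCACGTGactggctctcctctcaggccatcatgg
BNIP3, chr10:131982025-131982084, minus strand: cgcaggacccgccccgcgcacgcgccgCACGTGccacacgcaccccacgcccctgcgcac
Of the genes with the motif, ATG3 was lower in KD (log2 fold change −0.26) and LAMP1 (−0.060), ATG14 (−0.14) and BNIP3 (0.17) did not pass. A match of 6 letters describes the sequence and is not evidence of binding.

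The call of 20 of the 24 genes held under all 15 alternatives run, and no called gene changed direction. The exceptions were FUNDC1, RB1CC1, ATG7 and ATG101, the 4 with the highest adjusted p-values. Leaving out 1 sample lowered the counts over all genes as well. It left 2206 to 2729 higher and 1956 to 2327 lower, beside 2818 and 2479 with all samples. Without a filter on low values FUNDC1 (adjusted p = 0.0832), RB1CC1 (0.0604) and ATG101 (0.0877) did not pass, and ATG101 also missed on TPM (0.0525), after quantile normalization (0.145) and without the trend (0.0834). FUNDC1 missed without the trend (0.0604) and with voom on recovered reads (0.0994) as well. Leaving out any 1 sample but NC replicate 3 ended the call of FUNDC1 (log2 fold change 0.17 to 0.30 over the 6 fits), and leaving out any but NC replicate 2 ended that of ATG7 (0.14 to 0.21). RB1CC1 kept its call without NC replicate 2 or KD replicate 3 and lost it without each of the others (−0.27 to −0.16). ATG101 kept its call without NC replicate 2 or KD replicate 1 and lost it without each of the others (0.13 to 0.21).

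Other genes of the pathway also passed in both directions. Of 44 further autophagy genes, 39 were tested, 8 rose and 11 fell (48.7% passed, beside 44.6% of all genes), with a median log2 fold change of −0.027. The count that rose was 3 without NC replicate 1, NC replicate 3 or KD replicate 2, 4 without KD replicate 3 and 5 without KD replicate 1. Over all genes tested the count that rose also dropped in such fits, from 2818 to between 2206 and 2729. The 3 with the smallest adjusted p were all lower: PLEKHM1, an adaptor between autophagosomes and the fusion machinery (from 9.51 ± 0.354 to 6.26 ± 0.396 FPKM; log2 fold change −0.60), EI24, an endoplasmic reticulum protein needed for autophagy (−0.48), and VPS39 of the HOPS tethering complex (−0.43). Of the other HOPS subunits listed, VPS41 fell (−0.27) while VPS11 (0.16) and VPS18 (0.12) rose. RAB7A, the GTPase of late endosomes and lysosomes, rose (0.10), as did RUBCN, an inhibitor of the UVRAG complex (0.34), whereas the kinase TBK1, which phosphorylates SQSTM1 and OPTN, fell (−0.31).

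Upstream, 4 of 33 tested genes of mTORC1 and AMPK control rose and 10 fell (42.4% passed), with a median log2 fold change of −0.085. The count that fell was 7 without a filter on low values and 8 without the trend. The kinase MTOR itself, which restrains the ULK complex, rose from 10.4 ± 0.309 to 16.3 ± 0.901 FPKM (log2 fold change 0.64, SE 0.0544, adjusted p = 6.16e-05). LAMTOR4, a subunit of the Ragulator complex that anchors mTORC1 at the lysosome, rose from 22.0 ± 1.80 to 40.4 ± 1.65 FPKM (log2 fold change 0.88), and RRAGC, a Rag GTPase held there, fell from 67.3 ± 0.262 to 46.5 ± 2.61 FPKM (−0.53). RRAGD (−0.64) and SESN2 (−0.62), a leucine sensor of the same pathway, fell too, and RPTOR, the mTORC1 subunit that binds substrates, fell by 0.15 on the log2 scale.

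Of 39 lysosomal genes and TFEB-family genes, all tested, 7 rose and 11 fell (46.2% passed), with a median log2 fold change of −0.040. The count that rose was 4 without NC replicate 1 or KD replicate 1 and without the trend, and 3 after quantile normalization. MCOLN1, a calcium channel of the lysosome, fell from 15.01 ± 0.440 to 9.70 ± 0.326 FPKM (log2 fold change −0.63, SE 0.0487, adjusted p = 4.12e-05). PSAP, the precursor of the saposins, fell (−0.24) and ATP6V1B2, a subunit of the proton pump, rose (0.26). TFE3, a relative of TFEB present at a higher level, fell from 34.2 ± 1.08 to 27.7 ± 1.58 FPKM (log2 fold change −0.30), while the third member MITF did not pass (−0.0090, 95% interval −0.21 to 0.19).

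**Figure D5:**
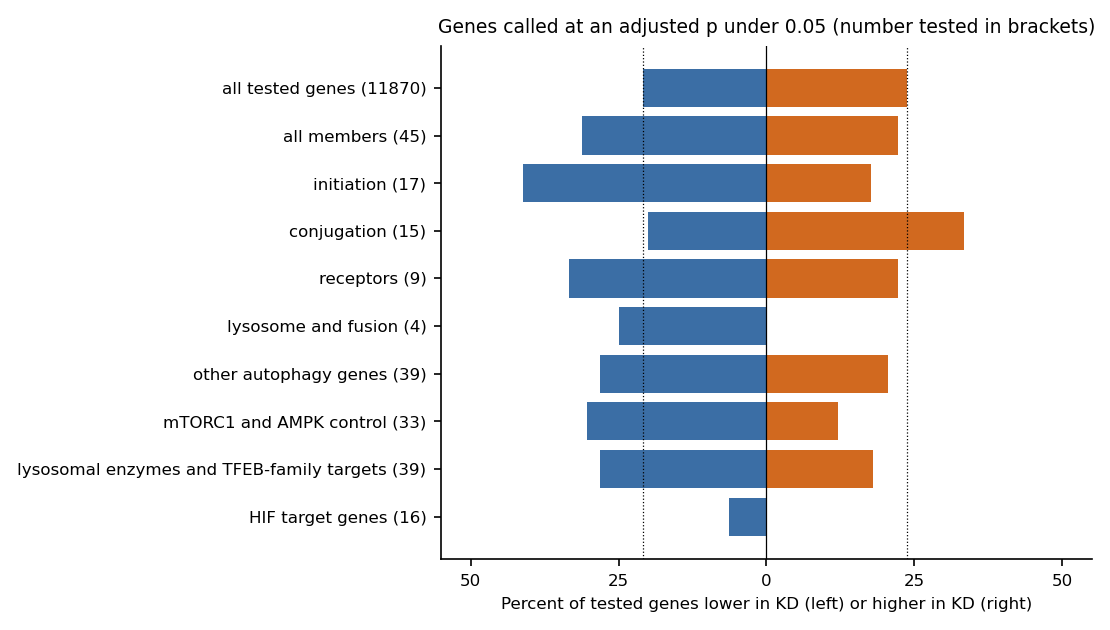
Percent of tested genes lower (left) and higher (right) in KD at an adjusted p under 0.05, for all genes, the 45 genes, their 4 classes and 4 further lists, with the number tested in brackets and dotted lines at the values of all tested genes. Initiation has 7 of 17 genes lower, conjugation 5 of 15 higher, and HIF targets 1 of 16 called.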

How the data were processed

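RNA of U251 cells was sequenced in 6 samples, 3 NC and 3 KD, grouped by their labels. The authors deposited 1 table of FPKM values per gene and sample, made by OE Biotech from TRIzol-extracted RNA and VAHTS Universal V6 libraries. The submitters' processing notes name HISAT2, HTSeq, DESeq2 and R 3.2.0 without their roles, and the genome build, annotation and strand setting are not given in the sources used here. Fold changes, fits and counts were computed here with limma 3.58.1 in R 4.3.3: genes with a mean of at least 0.5 FPKM (11870 of 23002) were tested with the limma trend method on log2(FPKM + 0.1), which understates changes of low genes, with Benjamini-Hochberg adjustment over all of them. A gene passed at an adjusted p under 0.05. Ratios and shares were tested with a two-sided exact permutation test over 20 assignments. Where both genes of a ratio moved in opposite directions without overlap, its p-value was fixed in advance. The 95% intervals and SE come from limma. Whole reads were recovered from the FPKM steps within a tolerance of 0.0001 and used for depth and for a limma-voom alternative. Scripts were tested on simulated data. Chi-square per gene between samples of 1 group was 5.01 to 12.2, above sampling noise, so all were counted as separate samples. The p-values measure the spread between these samples, which the design text calls biological replicates without saying how the cultures were kept apart. The 45 genes, the lists and the tests were chosen with earlier results of these data known, and results already seen give no independent support. Per-sample values are given for the 20 passing genes with the largest change and, in each other list, the 3 genes with the smallest adjusted p are named; further names in those lists were chosen after their values were seen. Alternatives were another pseudocount, another filter or none, TPM and quantile scaling, no trend, a replicate block, voom and leaving out each sample. Marker genes AIF1, CD3E and CHI3L1 were not analysed here, and single values of some listed genes are not reported here. The RefSeq promoters carry the build of their own table and no coordinate comes from the expression file.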

Additional observations from a re-analysis of the deposited data

How the results depend on the processing

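The counts and values of the 45 genes were recomputed under 15 alternatives. Of 673 comparisons of single genes, 631 kept direction and side of the threshold, 26 lost and 6 gained a call, and 10 changed direction, none of a called gene. Those 10 belong to ULK2, BNIP3 and PIK3R4. ULK2 became −0.000234 with a pseudocount of 1, −0.011 on TPM, −0.042 after quantile normalization and −4.45e-05 with voom, and ran from −0.084 to 0.10 when each sample was left out; BNIP3 ran from −0.039 to 0.38 and PIK3R4 from −0.065 to 0.029 in those fits. The count of receptors that rose was 1 in place of 2 without a filter, without the trend and with voom, and 1 to 3 when each sample was left out. After quantile normalization 2 genes of lysosome and fusion were lower in place of 1, LAMP1 (−0.13, adjusted p = 0.00561) joining STX17, ATG10 and VMP1 gained a call as well, and the median log2 fold change of the 45 genes was −0.11; the causes were not tested. With the replicate block, 10 of the 45 genes were higher and 14 lower, with 0 calls gained and 0 lost. Over all genes tested 2912 were higher and 2539 lower, beside 2818 and 2479 without the block. Deviations of same-numbered samples correlated at −0.081, 0.072 and 0.073, and those of differently numbered samples at −0.14 to 0.067. With 3 samples per group these values cannot settle whether the numbers pair the samples. TFEB and ULK2, the genes under a mean of 1 FPKM, were left untested by a filter at that level.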

Other observations

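Within the lysosomal list, the subunits of the vacuolar proton pump and the other genes were counted apart, a split chosen after the values were seen and given without a test. Of the 9 pump genes, 4 rose (ATP6V1A 0.34, ATP6V1D 0.27, ATP6V1B2 0.26 and ATP6V1H 0.17, as log2 fold changes), 0 fell and 5 did not pass. The share that passed was 44.4% of the pump genes and 46.7% of the other genes of the list, beside 44.6% of all genes tested. The count that rose over the whole list was 7, but 4 without NC replicate 1 or KD replicate 1 and without the trend, and 3 after quantile normalization. The 4 pump genes that rose belong to the V1 sector, which splits ATP on the cytosolic side. Most of the pump genes listed are of that sector, and its ATP6V1C1 (0.027) and ATP6V1E1 (0.070) did not pass. Of the other 30 genes, 3 rose and 11 fell, among them the protease CTSD (from 286 ± 22.2 to 229 ± 12.2 FPKM), the glycosidases GLB1 (−0.29), GAA (−0.62) and NAGLU (−0.36) and the peptidase TPP1 (−0.29), while CTSB (0.10) and NPC2 (0.15) were among those that rose.

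Of the 9 Rag and Ragulator genes, also singled out after the values were seen, 7 passed, 3 higher and 4 lower. That is 77.8%, beside 44.6% of all genes tested, and LAMTOR1 passed narrowly (limma, adjusted p = 0.0475). RRAGA (0.24), LAMTOR4 (0.88) and LAMTOR5 (0.23) rose, and RRAGC (−0.53), RRAGD (−0.64), LAMTOR1 (−0.11) and LAMTOR2 (−0.35) fell, so that members of the Rag heterodimers and of the scaffold that holds them moved in both directions.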
